A study of Mus musculus with 6 samples.

Results

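The nuclear genes of oxidative phosphorylation were followed through RNA sequencing of dorsal root ganglia (DRGs) from control and Tlx3cko mice. They were chosen by name: a row of the deposited count table was taken when its Ensembl identifier mapped to a protein-coding symbol beginning with Ndufa, Ndufb, Ndufc, Ndufs, Ndufv, Uqcr, Cox4i, Cox5, Cox6, Cox7, Cox8 or Atp5, or to Sdha, Sdhb, Sdhc, Sdhd, Cycs or Cyc1, and held at least 10 counts in total. Of the 47937 rows, 95 protein-coding rows matched and 93 were kept, because Cox7b2 had 8 counts and Cox8c had 0 over the 6 libraries. A further 11 pseudogene rows with such names, each with at most 48 counts in total, were left out. The 93 genes comprised 36 of complex I, 8 complex I assembly factors (Ndufaf symbols), 4 of complex II, 9 of complex III, cytochrome c (Cycs), 18 of complex IV and 16 of complex V. The remaining gene, Atp5s, matched by its prefix and was assigned to no complex. They lay on 19 chromosomes, 3 of them on X.

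Oxidative phosphorylation takes place in the inner mitochondrial membrane. Complexes I and II pass electrons from NADH and succinate to ubiquinone, complex III hands them to cytochrome c, complex IV passes them to oxygen, and complex V (ATP synthase) uses the proton gradient that complexes I, III and IV build to make ATP. Most subunits are encoded in the nucleus and a few in the mitochondrial DNA, so each complex other than complex II is assembled from both sources. Sensory neurons keep long axons and restore ion gradients after each impulse, both of which draw on ATP.

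Total RNA came from cervical, thoracic and lumbar DRGs of C57BL/6 mice about 2 months old, with 3 mice of each genotype. In the labels the control mice are wild type and the others Tlx3f/f;SNS-cre, in which the floxed homeobox gene Tlx3 is deleted by a Cre recombinase driven from the promoter of the sodium channel gene Scn10a (SNS). Cre is thus limited mainly to nociceptive neurons, while the RNA came from whole ganglia with glia and other cells, so fewer cells of a type and less RNA per cell cannot be told apart. The study itself calls them control mice, and no Cre-only or floxed-only group was analysed here.

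The libraries held between 11458299 and 18775628 counts. Counts of Tlx3 itself ran from 1828 to 2433 in control against 1052 to 1717 in Tlx3cko, a log2 fold change of -0.46 (adjusted p = 0.0122; edgeR quasi-likelihood F test, Benjamini-Hochberg adjusted over the 20006 genes tested). The 8 sensory neuron markers examined as a check of the tissue were all abundant, between 672 and 59974 counts in every library. Xist was counted 591 and 493 times in control replicates 1 and 2, which lacked Ddx3y, and at most 2 times in the other libraries, where Ddx3y reached 273 to 525, so sex was not balanced between the genotypes. Skeletal muscle transcripts also differed between libraries, with 11 markers summing to 219.7, 54.6 and 12 CPM (counts scaled to equal library totals) in control against 287.2, 230.3 and 156.4 in Tlx3cko replicates 1, 2 and 3.

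Of the 93 oxidative phosphorylation genes, 0 were lower and 0 were higher in Tlx3cko than in control DRGs at an adjusted p under 0.05 by the same edgeR test. Over all genes tested, 851 of 20006 passed, which is 4.25%, with 2.56% lower and 1.69% higher in Tlx3cko. The lowest adjusted p among the 93 was 0.184, for Ndufa3. DESeq2 and limma-voom also called 0 of the 93. Before adjustment, 3 of the 93 (Ndufa3, Ndufc2 and Cox7c) had a p under 0.05, against 14.5% of all genes tested. The values of the control and Tlx3cko libraries did not overlap for 7 genes (Ndufa3, Ndufb10, Ndufc2, Ndufaf4, Sdha, Atp5c1 and Atp5g1), all higher in Tlx3cko, against 19.7% of all genes tested in either direction.

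The log2 fold changes of the 93 genes lay in a narrow band. Their median was 0.04 with quartiles of -0.02 and 0.11, beside a median of 0.00 and quartiles of -0.19 and 0.17 over all genes tested. Of the 93, 86 averaged 50 or more normalized counts, with quartiles of -0.016 and 0.105 and a median standard error of 0.105. Over the 13373 genes at that level the quartiles were closer than over all genes, at -0.13 and 0.13, with a median standard error of 0.129. The part of count level in the narrow band was not tested. Normalized counts are counts scaled by edgeR's TMM factors to the mean effective library size of 14970767. The estimate was above 0 for 66 genes and below 0 for 27. Without Tlx3cko replicate 1 the median was -0.01 and 26 of the 93 estimates changed sign, so no direction is read from it.

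**Figure D1:**
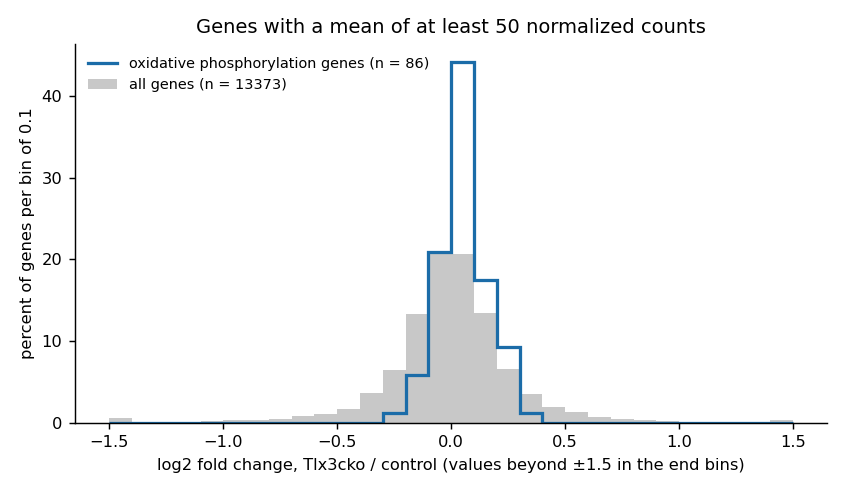
Share of genes (percent, vertical axis) in each bin of 0.1 of the log2 fold change between Tlx3cko and control DRGs (horizontal axis), for all 13373 genes that averaged 50 or more normalized counts (grey bars) and for the 86 oxidative phosphorylation genes at that level (blue line). Of the oxidative phosphorylation genes 44.2% fall between 0 and 0.1, beside 20.7% of all genes.

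The absence of calls was accompanied by narrow intervals. For 80 of the 93 genes the 95% interval of the fold change lay within 1.5-fold in either direction, and the upper bound was a median of 1.175 times the estimate. All 80 were among the 86 genes that averaged 50 or more normalized counts. The 6 others at that level were Ndufa3, Ndufaf2, Ndufaf6, Ndufaf8, Atp5j2 and Atp5k. The 7 genes under 50 (Cox4i2, Cox6a2, Cox6b2, Cox7a1, Cox8b, Ndufa4l2 and Atp5g2) had upper bounds a median of 2.252 times the estimate. Changes of about that size could thus be missed for them. The intervals are not adjusted over all genes, so a call would need a larger change still. All these intervals rest on 3 mice of each genotype. They use variances that edgeR moderates over all genes tested, not the spread of each gene alone.

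**Figure D2:**
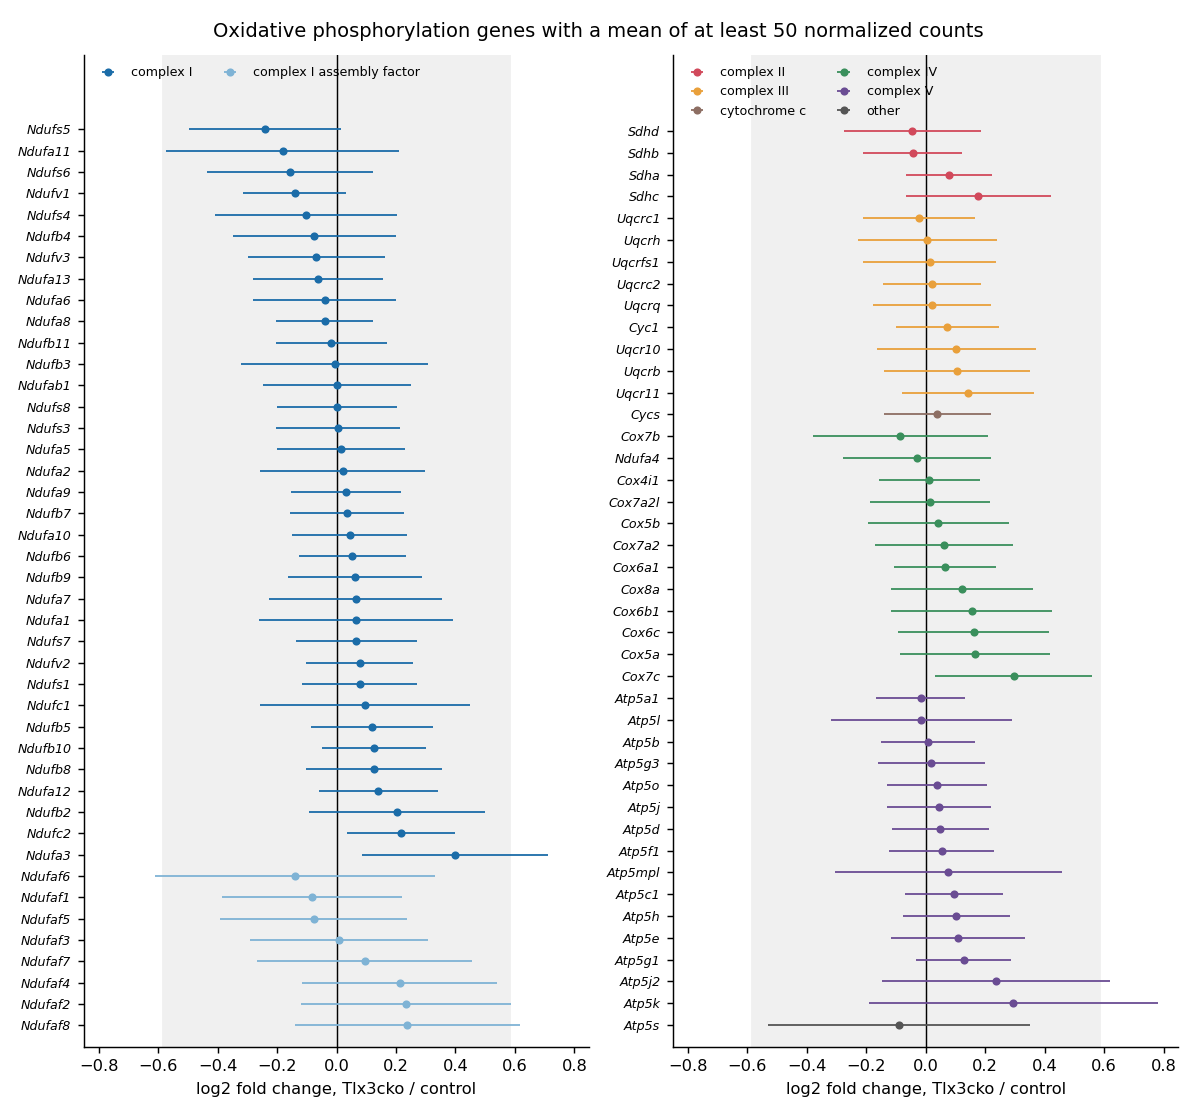
Log2 fold change between Tlx3cko and control DRGs (horizontal axis, points) with its 95% interval (lines) for 85 of the 86 oxidative phosphorylation genes that averaged 50 or more normalized counts, coloured by complex. The shaded band marks 1.5-fold in either direction, and the intervals of Ndufa3, Ndufc2 and Cox7c are the 3 that leave out 0.

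Complex I takes electrons from NADH through a flavin and a chain of iron-sulfur clusters. Its 36 genes had a median log2 fold change of 0.03, and 0 passed the threshold. Ndufv1, which carries the flavin and binds NADH, had 2503, 2476 and 2267 normalized counts in control against 2350, 2115 and 2102 in Tlx3cko libraries. Its log2 fold change was -0.14 (SE 0.08, adjusted p = 0.483, edgeR), and Tlx3cko replicate 1 lay within the control range. The iron-sulfur subunits Ndufs1 and Ndufs7 had log2 fold changes of 0.08 (SE 0.09) and 0.07 (SE 0.09).

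The accessory subunits of complex I, which surround the core, held both ends of the complex I range. Ndufa3 (ENSMUSG00000035674, chromosome 7, plus strand, 3617373 to 3620327 on GRCm38) had 355.1, 443.8 and 393.3 normalized counts in control against 637.1, 488.1 and 444.8 in Tlx3cko libraries. The lowest Tlx3cko library stood 1 count above the highest control library, and Tlx3cko replicate 1 was the highest of the 6. The log2 fold change was 0.40 (SE 0.14), a fold of 1.32 with a 95% interval of 1.06 to 1.64 (adjusted p = 0.184, edgeR). With no filter on low counts its adjusted p was 0.0391, and over the 16 alternatives it ranged from 0.0391 to 0.467. At the other end, Ndufs5 had 1099, 1229 and 1022 normalized counts in control against 1045, 1012 and 777.5 in Tlx3cko libraries. Tlx3cko replicate 3 was the low library and the groups overlapped, with a log2 fold change of -0.24 (SE 0.12, adjusted p = 0.382, edgeR) that was -0.12 without Tlx3cko replicate 3 and -0.32 without Tlx3cko replicate 1. Near-identical sequence in other genes covered 46.9% of the Ndufs5 transcript, which could have moved reads in the authors' counting. Ndufc2, chosen here after its values were seen, had 1073, 1052 and 1009 normalized counts in control against 1268, 1140 and 1231 in Tlx3cko libraries. Its groups stood apart, and its fold of 1.16 had a 95% interval of 1.02 to 1.32 (adjusted p = 0.232, edgeR).

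The 8 complex I assembly factors, which help build the complex and are not part of it, were among the low-level genes. Their median level in control was 207.2 normalized counts per kb of the principal transcript, beside 1007 for the subunits of complex I. Ndufaf7, the one with the most counts, ranged from 249.3 to 415.6 in control and from 363.5 to 398.4 in Tlx3cko libraries. The estimates ran from -0.14 (SE 0.22) for Ndufaf6 to 0.24 (SE 0.17) for Ndufaf8 on the log2 scale, and 0 of 8 passed the threshold.

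Complex II is the only complex without a mitochondrially encoded subunit and is also the succinate dehydrogenase of the citric acid cycle. Sdha, which carries its flavin, had 4920, 5168 and 5156 normalized counts in control against 5283, 5446 and 5354 in Tlx3cko libraries. The lowest Tlx3cko value was above the highest control value, yet the difference was small, with a fold of 1.06 and a 95% interval of 0.954 to 1.17 (adjusted p = 0.693, edgeR). Sdhb, the iron-sulfur subunit, was the steadiest of the 4 in control, at 1510, 1526 and 1547 normalized counts, against 1540, 1468 and 1437 in Tlx3cko. The membrane anchors Sdhc and Sdhd had log2 fold changes of 0.18 (SE 0.11) and -0.04 (SE 0.11).

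The 9 genes of complex III had a median log2 fold change of 0.02, and 8 of the 9 estimates were above 0. The electron carriers of the complex, the Rieske iron-sulfur protein Uqcrfs1 and cytochrome c1 (Cyc1), had log2 fold changes of 0.01 (SE 0.10) and 0.07 (SE 0.08). Uqcrc1, a core protein, had 2600, 2803 and 2510 normalized counts in control against 2870, 2366 and 2549 in Tlx3cko libraries, with Tlx3cko libraries at both ends. The small subunit Uqcr11 gave the highest estimate, 0.14 (SE 0.10), with Tlx3cko replicate 1 at 1277 and the other libraries between 950.0 and 1109. Cycs, the soluble carrier between complexes III and IV and also a trigger of apoptosis once released, had 1304, 1455 and 1299 normalized counts in control against 1338, 1418 and 1414 in Tlx3cko libraries. The Tlx3cko values lay within the control range, and the fold of 1.03 had a 95% interval of 0.907 to 1.16.

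Complex IV, the cytochrome c oxidase, has its catalytic centre in mitochondrially encoded subunits, and its nuclear subunits surround and regulate that core. Its 18 genes had a median log2 fold change of 0.05 and 0 calls. Cox7c had 798.7, 916.6 and 839.2 normalized counts in control against 1264, 904.1 and 964.5 in Tlx3cko libraries. Tlx3cko replicate 1 was far above the other libraries and Tlx3cko replicate 2 lay within the control range. The log2 fold change of 0.30 (SE 0.12, adjusted p = 0.269, edgeR) was 0.14 without Tlx3cko replicate 1, and 58.3% of the Cox7c transcript had near-identical sequence elsewhere. Cox6a1, the complex IV gene with the most counts, had 7710, 8218 and 7323 normalized counts in control against 8871, 7644 and 7799 in Tlx3cko libraries, and its fold of 1.05 had a 95% interval of 0.929 to 1.18. Cox4i1, the largest nuclear subunit, had a fold of 1.01 with a 95% interval of 0.897 to 1.13. Cox7b gave the lowest estimate among the well-counted complex IV genes, -0.09 (SE 0.14).

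Complex V has a catalytic head and a rotating ring in the membrane. Atp5b, the catalytic beta subunit, had the most counts in the complex, at 15850, 17610 and 16170 normalized counts in control against 17910, 15730 and 16230 in Tlx3cko libraries. The groups covered the same range, and the fold of 1.01 had a 95% interval of 0.900 to 1.12. The alpha subunit Atp5a1 had a fold of 0.989 with a 95% interval of 0.891 to 1.10. Atp5k, a small membrane subunit, gave the highest estimate of the complex, 0.29 (SE 0.22), but its values were 256.9, 398.9 and 371.7 in control against 598.6, 313.6 and 345.4 in Tlx3cko libraries. Only Tlx3cko replicate 1 stood above the controls for Atp5k. The gamma subunit Atp5c1, which forms the central stalk, had 1509, 1545 and 1474 normalized counts in control against 1653, 1588 and 1595 in Tlx3cko libraries. Its groups did not overlap, though the fold of 1.07 had a 95% interval of 0.954 to 1.20 (adjusted p = 0.658, edgeR).

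The 3 X-linked genes were examined beside the unequal sexes of the libraries, and their median log2 fold change was -0.02. Ndufb11, a membrane subunit of complex I, had 1391, 1428 and 1228 normalized counts in control against 1389, 1295 and 1312 in Tlx3cko libraries. Ndufa1, another accessory subunit, had 449.0, 624.3 and 599.1 in control against 706.4, 532.8 and 510.8 in Tlx3cko libraries. Cox7b had 791.2, 870.7 and 906.2 in control against 988.4, 636.4 and 789.3 in Tlx3cko libraries. The control libraries with Xist counts, replicates 1 and 2, were the highest of the 6 for Ndufb11, by 2 normalized counts over Tlx3cko replicate 1, and lay within or below the range of the others for Ndufa1 and Cox7b. The part of sex was not tested.

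**Figure D3:**
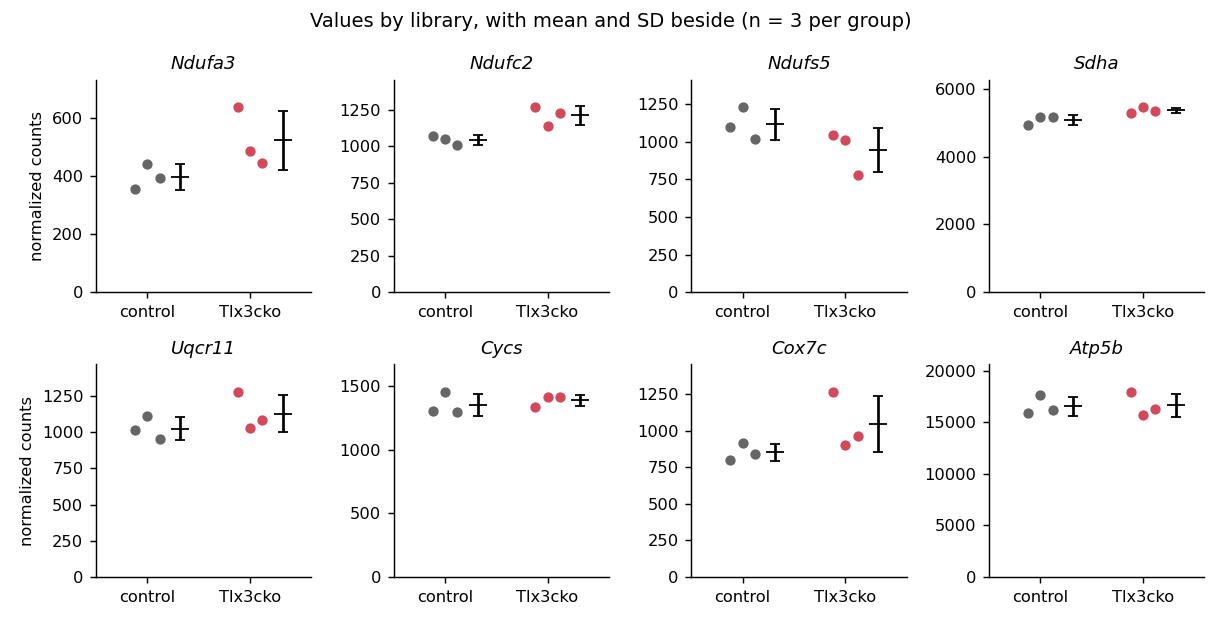
Normalized counts (vertical axes, from 0) of 8 oxidative phosphorylation genes in each of 3 control (grey) and 3 Tlx3cko (red) libraries, in replicate order within each group, with the group mean and SD beside them. The groups stand apart for Ndufa3, Ndufc2 and Sdha and overlap for Ndufs5, Uqcr11, Cycs, Cox7c and Atp5b.

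Several complex IV subunits exist as a widespread isoform and a second isoform that is enriched in muscle, lung, testis or other tissues. In these DRGs the widespread isoform dominated every pair in every library. Per kb of principal transcript, control DRGs had 13570 normalized counts of Cox6a1 and 12.3 of Cox6a2, the heart and skeletal muscle isoform, which made up between 0.0144% and 0.223% of the pair in the 6 libraries. Cox4i2, enriched in lung and linked to the response to low oxygen, made up 0.119% to 0.469% of its pair with Cox4i1. Cox8b, found in heart, muscle and brown fat, made up 0.0854% to 0.441% of its pair with Cox8a. Ndufa4l2, a paralog of the complex IV subunit Ndufa4 that hypoxia induces in other cells, made up 0.192% to 0.552% of that pair. The testis isoform Cox6b2 reached 0.642% to 2.16% beside Cox6b1, and the muscle isoform Cox7a1 reached 6.01% to 10.1% beside Cox7a2, the highest share of the 6 pairs.

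None of the 6 isoform shares separated the genotypes. The exact two-sided permutation p for the share ranged from 0.5 to 0.9 (all 0.9 after Benjamini-Hochberg adjustment over the 6 pairs), and 3 libraries against 3 cannot give a p below 0.1. Cox7a1 made up 8.08% ± 2.04 (SD, n = 3) of its pair in control against 7.10% ± 1.6 (SD, n = 3) in Tlx3cko DRGs. Cox4i2 made up 0.192% ± 0.0636 (SD, n = 3) in control against 0.289% ± 0.159 (SD, n = 3) in Tlx3cko DRGs, where Tlx3cko replicate 1 alone reached 0.469%.

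**Figure D4:**
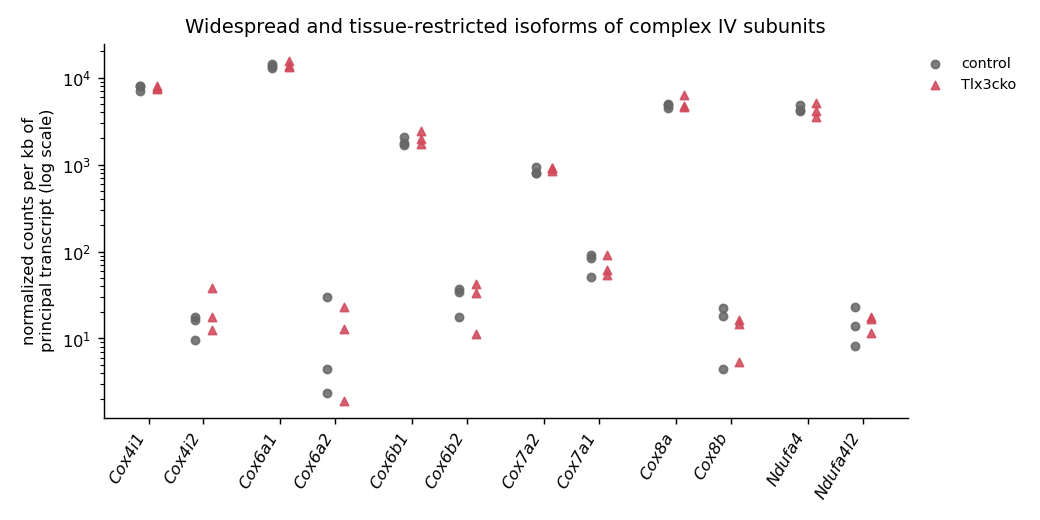
Normalized counts per kb of principal transcript (vertical axis, log scale) for 6 pairs of a widespread (left of each pair) and a tissue-restricted isoform (right of each pair), with 3 control (grey circles) and 3 Tlx3cko libraries (red triangles). The widespread isoforms lie between 849 and 13570 in the control mean, and the tissue-restricted ones between 12.3 and 75.

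The muscle isoform Cox6a2 followed single libraries more than the genotypes. It had 19, 3 and 2 counts in control against 9, 1 and 16 in Tlx3cko libraries, so that control replicate 1 and Tlx3cko replicate 3 were the high ones. All 11 skeletal muscle markers were likewise highest in control replicate 1 among the controls after scaling to library size. Among the Tlx3cko libraries only Myh1 and Myh2 were highest in replicate 3, with 5 markers highest in replicate 1 and 4 in replicate 2, so most of the list did not follow Cox6a2 there. The part of muscle in the Cox6a2 counts was not tested. Of these 11 markers 1 passed the threshold, Myh4, higher in Tlx3cko (9.09%, beside 4.25% of all genes), with 9 of 11 estimates above 0 and a median log2 fold change of 1.14. Of the 6 markers of slow or cardiac muscle 0 passed, with all 6 estimates below 0 and a median of -0.89. Of the 4 brown fat markers, Ucp1 and Elovl3 had at most 2 and 1 counts in any library, while Cidea had 9 to 18 and Dio2 had 6 to 28.

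Subunit c, which forms the rotating ring of complex V, is encoded by Atp5g1, Atp5g2 and Atp5g3, whose mature proteins are alike. Per kb, Atp5g3 gave 88.2% to 89.5% of the sum of the 3 genes over the 6 libraries, Atp5g1 gave 9.18% to 10.8% and Atp5g2 gave 0.714% to 1.32%. These shares rest on principal transcripts of 4715 bases for Atp5g1 and 723 bases for Atp5g3. Without division by length, Atp5g1 gave 39.7% to 44.1% of the normalized counts of the 3 genes and Atp5g3 gave 55.3% to 59.4%, so the balance between them depends on which transcripts were read. Atp5g1 had 1939, 1971 and 1969 normalized counts in control against 2186, 2033 and 2203 in Tlx3cko libraries. All Tlx3cko values were above the controls, and the fold of 1.09 had a 95% interval of 0.978 to 1.22 (adjusted p = 0.495, edgeR). The Atp5g2 value is uncertain, since 88.2% of its transcript had near-identical sequence in other genes.

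Levels differed far more between subunits than between genotypes. In control DRGs the highest levels per kb were those of Cox6a1 (13570), Atp5b (8635), Cox4i1 (7635), Cox8a (4772), Atp5a1 (4488) and Ndufa4 (4386). By complex, the median level in normalized counts per kb was 1007 for complex I, 1050 for complex II, 1424 for complex III, 1347 for complex IV and 1954 for complex V. The length used was that of the principal transcript, so a gene read mainly from another isoform would be misplaced in this order.

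The oxidative phosphorylation genes varied together from library to library within a genotype. Together they took 0.896%, 0.982% and 0.892% of all counts in control replicates 1, 2 and 3, and 1.01%, 0.891% and 0.918% in Tlx3cko replicates 1, 2 and 3. The means were 0.924% ± 0.0509 (SD, n = 3) and 0.940% ± 0.0628 (SD, n = 3), and the values of the genotypes overlapped. The exact two-sided permutation p was 0.7. With 3 libraries against 3 it could not fall below 0.1, so no conclusion is drawn from it. Of the 86 genes that averaged 50 or more normalized counts, 44 were highest in Tlx3cko replicate 1 and 25 in control replicate 2, while 28 were lowest in control replicate 1 and 26 in control replicate 3. A single library of each genotype was thus the high one. How many other genes were highest or lowest in these libraries was not counted. The median coefficient of variation among the 3 libraries of a genotype was 7.85% in control and 8.22% in Tlx3cko for these genes, beside 9.74% and 9.14% over the 13373 genes at that level.

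The same shift appeared in the median deviation of these 86 genes from their own mean over the 6 libraries. On the log2 scale it was -0.07, 0.08 and -0.05 in control against 0.11, -0.04 and -0.01 in Tlx3cko replicates 1, 2 and 3. For the 40 genes with a principal transcript under 875 bases it was 0.18 in Tlx3cko replicate 1, and for the 46 longer ones it was 0.09 there. Over all protein-coding genes that averaged 50 or more normalized counts, the 412 of that short length had a median deviation of 0.09 in control replicate 2 and 0.07 in Tlx3cko replicate 1, against 0.00 and 0.01 for the 11463 longer ones. Across the 86 genes, Spearman's rho between transcript length and log2 fold change was -0.19, and without Tlx3cko replicate 1 it was 0.08. In the fit corrected for length it was -0.105. Over the 11875 protein-coding genes at that level it was 0.07 in the main fit. The median log2 fold change of the 40 shorter genes was 0.064 both in the main fit and after length correction. That correction used the merged length of all annotated exons, such as 6443 bases for Atp5l against 544 in its principal transcript. It thus did not directly correct for the length that defines the 40 genes. The 86 genes share their libraries and are not independent replicates. The part of transcript length in the shift was not tested.

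**Figure D5:**
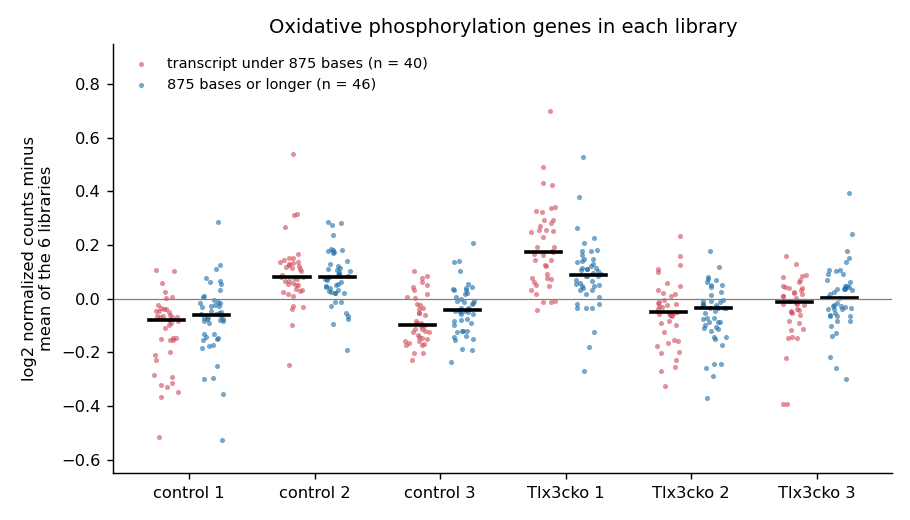
Log2 normalized counts of each of 86 oxidative phosphorylation genes minus its mean over the 6 libraries (vertical axis), by library, for principal transcripts under 875 bases (red, 40 genes) and longer ones (blue, 46 genes), with the median of each as a black bar. Control replicate 2 and Tlx3cko replicate 1 sit above 0 for both length classes, and the widest gap between the classes is in Tlx3cko replicate 1 (0.18 against 0.09).

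Nuclear oxidative phosphorylation genes are known as targets of NRF1 and of the ETS factor GABPA (also called NRF2), which bind near their start sites. The 250 bases before the start were taken from RefSeq (GRCm38.p6) for 76 of the 93 genes, which gave 81 promoters. The NRF1 core GCGCATGC, searched on both strands, was found in 10 of them, or 12.3%, beside 3.73% of the 15612 promoters of protein-coding genes tested. The ETS core CCGGAAG, also searched on both strands, was found in 14 of the 81, or 17.3%, beside 11.4%. Atp5l and Cox6a1 held both cores, at separate positions. The following 60-base stretches show cores in genes of different roles, written in the direction of transcription with the core in capitals. They lie before the RefSeq start and outside the exons of protein-coding genes.
Cycs: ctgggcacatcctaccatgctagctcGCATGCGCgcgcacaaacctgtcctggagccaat
Cox6a1: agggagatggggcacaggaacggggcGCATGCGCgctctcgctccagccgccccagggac
Ndufa6: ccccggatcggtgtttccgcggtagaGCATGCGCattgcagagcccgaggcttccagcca
Ndufaf4: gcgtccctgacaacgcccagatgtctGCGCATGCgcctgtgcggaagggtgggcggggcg
Uqcr11: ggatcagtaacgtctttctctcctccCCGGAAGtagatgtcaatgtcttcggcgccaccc
Atp5e: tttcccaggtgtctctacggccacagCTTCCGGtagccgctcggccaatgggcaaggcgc

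These stretches lie at chr6:50566596-50566655 for Cycs, chr5:115349085-115349144 for Cox6a1, chr15:82354341-82354400 for Ndufa6 and chr4:24897944-24898003 for Ndufaf4, which hold the NRF1 core, and at chr10:80406854-80406913 for Uqcr11 and chr2:174464170-174464229 for Atp5e, which hold the ETS core. Ndufaf4 is on the plus strand and the other 5 genes are on the minus strand. The 10 genes with an NRF1 core (Cycs, Cox6a1, Ndufa6, Ndufaf4, Ndufa8, Ndufa11, Sdhb, Atp5g2, Atp5k and Atp5l) had log2 fold changes between -0.18 for Ndufa11 and 0.29 for Atp5k, with a median of -0.03. The 14 with an ETS core had log2 fold changes between -0.08 and 0.24, with a median of 0.05. In both sets 0 genes passed the threshold. A match to these letters describes the sequence and does not show binding.

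The other mitochondrial gene lists examined gave 0 calls. Of the 13 mitochondrially encoded subunits 0 passed the threshold, with a median log2 fold change of 0.11 and all 13 estimates above 0 (lowest adjusted p 0.518, edgeR). The groups overlapped for all 13. Their summed CPM was 11700, 16850 and 14990 in control against 15880, 13800 and 17370 in Tlx3cko replicates 1, 2 and 3. These 13 genes share their libraries, so the common sign is not 13 independent observations. Their counts were very uneven, since mt-Co1 had 60004 to 104636 counts in a library and mt-Co2 had 445 to 1484, although both encode core subunits of complex IV. Of 41 assembly factors for the complexes outside the names used here, 0 passed, with a median of 0.01, and of 77 mitochondrial ribosomal protein genes 0 passed, with a median of 0.01. Of 12 regulators of mitochondrial biogenesis, which include Ppargc1a, Nrf1, Gabpa and Tfam, 0 passed, with a median of 0.05.

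The enzymes that feed the respiratory chain gave like counts. Of 17 genes of pyruvate dehydrogenase and the citric acid cycle 0 passed, with a median log2 fold change of 0.04, and of 16 glycolytic genes 0 passed, with a median of -0.03. Among 88 genes tested from a list taken by symbol (Rpl or Rps and a digit, with Rplp0, Rplp1, Rplp2 and Rpsa), most of them cytosolic ribosomal proteins, 3 passed, all lower in Tlx3cko, and the median was -0.06. That is 3.41% of the list, near the 4.25% of all genes tested. The list also holds paralogs, copies named as pseudogenes and Rps19bp1, which is no ribosomal protein, and reads of such near-identical copies depend on how they were assigned. Of 5 satellite glia and 5 Schwann cell markers 0 passed. Of the 8 sensory neuron markers 3 passed, Scn10a and Nefh among them, all higher in Tlx3cko, beside 4.25% of all genes tested. The list did not move as a whole, with 5 estimates above 0 and 3 below 0 and a median of 0.11.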

How the data were processed

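RNA of 3 control and 3 Tlx3cko DRG samples was sequenced as paired-end reads, and the authors deposited raw counts of reads per gene without normalization. The submitters' processing notes name STAR 2.5.2a and mm10. The counting program, the annotation and the use of strand are not given in the sources used here. Reads of overlapping genes on opposite strands, which concern 11 of the 93 genes at over 10% of their exons, may thus have been split or mixed.

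Gene symbols, positions and lengths came from GENCODE M21 on GRCm38 (47224 of 47729 Ensembl identifiers matched). TMM normalization and testing with edgeR 4.0.16 in R 4.3.3 (glmQLFit and glmQLFTest) used the 20006 genes that had 10 or more counts in total, with Benjamini-Hochberg adjustment over all of them and a threshold of 0.05. The test recovered large known changes in data simulated from the fitted dispersions. That check set no limit for changes as small as those of the genes followed here. The standard error was the log2 fold change divided by the square root of F. A blastn 2.17.0+ search for near-identical sequence used the annotated transcripts (at least 100 bases, 98% identity). It found such sequence for 29 of the 93 genes. Since 0 of the 93 were called, leaving these genes out could not change the count, and the part of such sequence was not tested. Libraries of a genotype differed by more than sampling noise (chi-square per degree of freedom 4.46 to 10.7).

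The genes and lists were chosen with earlier results of these data known. Genes were named if they passed the threshold, belonged to an isoform pair, carried a catalytic centre, or had the most counts or the lowest or highest log2 fold change of their complex at a mean of at least 50 normalized counts. Genes named for 0 overlap or an unadjusted p were chosen after their values were seen. A few genes that these rules name are not reported here. Rps6k kinases, which share the Rps prefix, were left out of the ribosomal list. Alternatives covered other normalizations, DESeq2 1.42.0, limma-voom (limma 3.58.1) and other filters and thresholds. They also covered corrections for merged exon length and for GC content, and the replicate number as a block. Each library was left out in turn, and control replicate 3 was used as the only control.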

Additional observations from a re-analysis of the deposited data

How the results depend on the processing

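The count of oxidative phosphorylation genes lower in Tlx3cko was 0 under every alternative fitted, and the count higher was 0 under every alternative except that without a filter on low counts, where it was 1 (Ndufa3, adjusted p = 0.0391 from edgeR). That alternative tested 26705 genes and called 1529 of them. The median log2 fold change of 0.04 moved between -0.01 and 0.10 when 1 library was left out. It was lowest without Tlx3cko replicate 1 and highest without control replicate 2. With control replicate 3 as the only control it was 0.10, and there the lone control is assumed to vary like the Tlx3cko libraries. Control replicate 3 was the only control with Ddx3y counts, which all Tlx3cko libraries had, and the part of sex was not tested. These moves of the median stayed within about the SD of the library medians, 0.085. Single estimates that did not pass the threshold changed sign for up to 26 of the 93 genes (without Tlx3cko replicate 1), and the cause was not tested. Over all genes the 851 calls became 530 without control replicate 2, 488 without Tlx3cko replicate 2, 512 without Tlx3cko replicate 3, 546 with control replicate 3 as the only control, 1119 with DESeq2 and 855 with limma-voom. Samples with the same number did not deviate together (correlations of -0.13, -0.01 and -0.12 over 13373 genes). Samples with unlike numbers gave correlations between -0.01 and 0.13. Deviations from means of 3 libraries cannot decide whether the numbers pair the mice. With the replicate number as a replicate block, 0 of the 93 genes and 770 of all genes passed the threshold, with a median of 0.04 over the 93, so the block changed no call among them. Depth limits the 7 genes with a mean under 50 normalized counts.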
